A study of Mus musculus with 2 samples.

Results

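Neurod1, Neurod2, Eomes, Prox1 and Tbr1 are transcription factors that mark successive steps in the making of dentate granule neurons. They were chosen by name as 5 of the 17592 genes measured in single cells of the mouse dentate gyrus, and were described across brain cell classes and in cells that carried a transcript of Dcx or Igfbpl1, which mark newly born neurons. Single cells came from the microdissected dentate gyrus of C57BL/6 mice, 1 library from old animals aged 16 months and 1 from young animals aged 3 months. Cells that excluded propidium iodide were sorted before droplet capture, and both libraries had the same treatment. No source used here gives the sex of the animals or how many went into a library, and with 1 library per age no difference between ages can be tested.

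In the adult dentate gyrus, dividing stem cells give rise to intermediate progenitors, which become neuroblasts and then glutamatergic granule neurons. Eomes, a T-box factor also called Tbr2, marks the intermediate progenitors. Neurod1 and Neurod2 are basic helix-loop-helix (bHLH) factors that pair with E proteins such as Tcf4 to switch on neuronal genes, and Neurod1 is needed for new granule neurons to mature and survive. Prox1, a homeobox factor, sets granule neuron identity and is also the master factor of lymphatic endothelium. Tbr1, a T-box factor, belongs to postmitotic glutamatergic neurons and to Cajal-Retzius cells, the reelin-secreting neurons of the hippocampal fissure.

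The old library held 1430 cells with 7451506 UMIs (unique molecular identifiers, 1 per captured transcript) and the young library 2463 cells with 16217559 UMIs. Cell barcodes were shared by the 2 libraries in 1401 cases, 98.0% of the old library, and of the brain-class cells 1113 barcodes lay in both. Values of the old library are therefore mostly a second count of the same cells and no replicate, and young cells are the base of what follows. Of the brain-class cells, 56 of 1141 old (4.91%) and 58 of 1148 young cells (5.05%) were neuroblast-like, by 10 markers that included Dcx, Igfbpl1, Sox11 and Tubb3. No cluster met the rule for mature granule neurons or for stem cells. The other 289 old and 1315 young cells lay in 7 clusters with a median mitochondrial share under 1%, which were given no name and are described at the end.

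The 5 genes lie on chromosomes 1, 2, 9 and 11 in the GENCODE M21 annotation of GRCm38, the assembly that mm10 is built on. Eomes spans chr9:118478212-118486132 on the plus strand, Neurod1 chr2:79452521-79456751 on the minus strand, Neurod2 chr11:98325415-98329648 on the minus strand, Prox1 chr1:190118035-190170714 on the minus strand and Tbr1 chr2:61802930-61814114 on the plus strand. Neurod1 overlaps Cerkl on the same strand and Gm26755 on the opposite strand, and Eomes overlaps the antisense gene Gm33460. Prox1 overlaps the antisense genes Gm28172 and, at its start, Prox1os, which has a column of its own in the table. None of the 31-base words in the last 500 bases of any annotated transcript of a member occurred in a transcript of another gene, so reads from the captured ends did not match the paralogues Neurod1 and Neurod2 or Eomes and Tbr1 alike.

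The start regions of Neurod1, Neurod2 and Prox1, that is of Neurod2 and of the 2 factors found most often in cells that had it, are shown because NeuroD factors bind E-boxes such as CAGATG. Each runs from 250 bases before the start of transcription to 50 bases from it, is read from RefSeq (GRCm38.p6, minus strand, written 5′ to 3′ along the gene), and has in capitals any match on either strand to that E-box, to a second E-box spelled CAGCTG, to the T-box half-site spelled AGGTGTGA or to the TATA box spelled TATAAA.
Neurod1 chr2:79456587-79456886: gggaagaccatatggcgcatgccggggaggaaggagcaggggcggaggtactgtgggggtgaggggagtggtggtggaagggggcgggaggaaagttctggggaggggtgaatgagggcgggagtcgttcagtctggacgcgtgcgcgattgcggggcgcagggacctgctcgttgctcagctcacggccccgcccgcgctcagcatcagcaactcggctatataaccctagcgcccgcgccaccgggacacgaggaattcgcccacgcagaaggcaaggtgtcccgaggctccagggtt
Neurod2 chr11:98329596-98329895: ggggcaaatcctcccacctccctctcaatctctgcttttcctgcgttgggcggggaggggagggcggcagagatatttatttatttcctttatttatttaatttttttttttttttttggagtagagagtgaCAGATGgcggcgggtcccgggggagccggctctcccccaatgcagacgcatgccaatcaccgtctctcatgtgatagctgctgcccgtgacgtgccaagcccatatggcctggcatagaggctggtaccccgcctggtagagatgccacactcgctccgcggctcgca
Prox1 chr1:190170778-190171077: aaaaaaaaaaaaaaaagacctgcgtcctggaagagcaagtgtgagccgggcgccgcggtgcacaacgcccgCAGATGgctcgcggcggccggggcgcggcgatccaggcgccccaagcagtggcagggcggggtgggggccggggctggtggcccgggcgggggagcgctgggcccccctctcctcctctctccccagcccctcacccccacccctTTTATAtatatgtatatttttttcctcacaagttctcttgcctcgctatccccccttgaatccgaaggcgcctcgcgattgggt

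The first E-box was found once in the Neurod2 window, at -118 to -113 from the start, and once in the first of 2 Prox1 windows, at -179 to -174. The Prox1 window also held the TATA letters, in the other orientation, at -34 to -29. None of the 4 strings lay in the windows of Neurod1, Eomes or Tbr1. Of all 32851 RefSeq start regions of this length, 17.2% held the first E-box, 16.3% the second, 1.28% the T-box half-site and 13.6% the TATA box on either strand. No motif overlapped another in these windows, and a match describes the letters only.

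All 5 factors were at higher levels per 10,000 UMIs in neuroblast-like cells. Prox1 still had more of its young UMIs in other brain-class cells (171) than in neuroblast-like cells (152). Against all other brain-class cells of the young library, each was at least 4-fold higher on the log2 scale of UMIs per 10,000 with 0.1 added, which 2.78% of the 12336 genes with at least 20 UMIs reached. The log2 ratio was 5.61 for Neurod1 and 4.38 for Eomes, ranks 4 and 17 of those genes. It was 3.35 for Neurod2, 3.26 for Tbr1 and 3.19 for Prox1, ranks 66, 78 and 89. The factors were left out of the genes used for clustering, but the clusters were made from the same cells, so these values are a description. Intervals given here are exact 95% intervals and cover counting error only, since transcripts of 1 library are not independent animals.

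Eomes was found in 29 of 58 young neuroblast-like cells (50.0%, interval 36.6 to 63.4%), with 98 UMIs or 2.20 UMIs per 10,000 (1.78 to 2.68). In the other 1090 brain-class cells there were 6 UMIs of Eomes in 5 cells. Microglia-like cells, which should lack the gene, had 1 cell with a UMI among 363 (0.275%) at a median depth of 7984 UMIs per cell, against a median of 8473.5 UMIs in neuroblast-like cells. Outside neuroblast-like cells, classes with an Eomes UMI had 1 or 2 UMIs each, and their order cannot be read. The 2 UMIs lay in 1 of 5 T or NK cell-like cells, a type known for Eomes.

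Neurod1 gave 231 UMIs in 39 of 58 young neuroblast-like cells (67.2%, 53.7 to 79.0%), or 5.18 UMIs per 10,000 (4.53 to 5.89). Astrocyte-like cells had 3 Neurod1 UMIs in 304 cells and microglia-like cells 2 in 363 cells (0.551%). No Neurod1 UMI was found in the 48 oligodendrocyte precursor-like or the 79 mature oligodendrocyte-like cells. By the lower ends of the exact intervals, the neuroblast-like level was at least 49.1-fold and at least 99.1-fold higher than in these classes. Neurod2 gave 45 UMIs in 21 of 58 neuroblast-like cells (36.2%, 24.0 to 49.9%), or 1.01 UMIs per 10,000 (0.736 to 1.35), against 5 UMIs in the other 1090 brain-class cells. Of those 5, 3 lay in microglia-like cells (3 of 363, 0.826%).

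Tbr1 gave 39 UMIs in 24 of 58 young neuroblast-like cells (41.4%, 28.6 to 55.1%), a level of 0.874 UMIs per 10,000. A single Tbr1 UMI was found in the other 1090 brain-class cells, in 1 microglia-like cell of 363 (0.275%). Thinned to 2000 UMIs per cell, which left out 7 of 58 shallower cells, the expected shares of neuroblast-like cells with a UMI were 24.9% for Eomes, 52.6% for Neurod1, 19.3% for Neurod2 and 16.1% for Tbr1. Microglia-like cells, thinned in the same way, had 0.0545% for Eomes, 0.25% for Neurod1, 0.233% for Neurod2 and 0.0669% for Tbr1.

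Prox1 differed from the other 4 in having a second class with many positive cells. It was found in 41 of 58 young neuroblast-like cells (70.7%, 57.3 to 81.9%; 3.41 UMIs per 10,000, 2.89 to 3.99) and in 52 of 79 mature oligodendrocyte-like cells (65.8%, 54.3 to 76.1%; 1.49 UMIs per 10,000, 1.22 to 1.80). The level in neuroblast-like cells was 2.29-fold that in mature oligodendrocyte-like cells (1.77 to 2.96). Astrocyte-like cells at 0.188, oligodendrocyte precursor-like cells at 0.170 and microglia-like cells at 0.138 UMIs per 10,000 came next, with intervals that overlapped one another. No Prox1 UMI was found in 129 endothelial-like cells (upper end of the exact interval 0.0804 UMIs per 10,000) or in 68 pericyte-like cells. Flt4 and Pdpn, the 2 of 3 measured lymphatic endothelial genes with enough UMIs, were not higher in neuroblast-like cells, at log2 ratios of -0.57 and -0.29.

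After thinning to 2000 UMIs, Prox1 was expected in 44.4% of neuroblast-like, 25.6% of mature oligodendrocyte-like, 3.76% of astrocyte-like and 2.57% of microglia-like cells of the young library. Without thinning, the microglia-like share was 35 of 363 (9.64%). The antisense gene Prox1os was found in 18 of the 58 neuroblast-like cells (0.807 UMIs per 10,000), in 22 of the 79 mature oligodendrocyte-like cells (0.365) and in 1 of the 363 microglia-like cells. The other 4 factors together had 1 UMI, of Eomes, in the young mature oligodendrocyte-like cells.

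**Figure D1:**
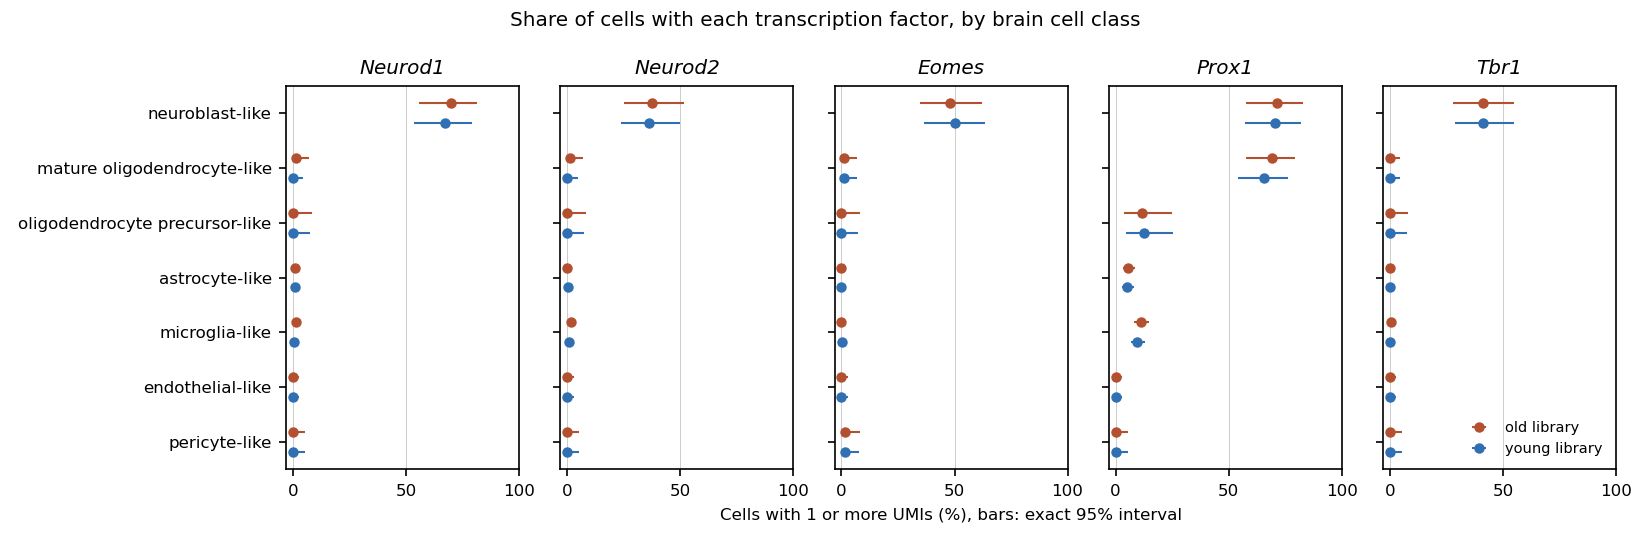
Share of cells with 1 or more UMIs of each factor (x axis, percent, with exact 95% intervals) in 7 brain cell classes (y axis), old library above young library. Neurod1, Neurod2, Eomes and Tbr1 stand above 30% in neuroblast-like cells and under 3% in the other classes shown, while Prox1 is also found in 69.2% of old and 65.8% of young mature oligodendrocyte-like cells.

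Other genes of the lineage were mixed. Lists were grouped by function, and 4-fold higher is again the line that 2.78% of all tested genes passed upward. Of the neuroblast list 13 of 13 tested genes were at least 4-fold higher in neuroblast-like than in other brain-class cells of the young library, led by Igfbpl1 (log2 7.78), Sox11 (6.91), Tubb3 (5.86) and Stmn2 (5.25). The list contains genes that named the class. Of 12 other forebrain excitatory transcription factors 8 were, led by Myt1l (4.11), Bcl11a, Emx1 (3.84) and Zbtb18 (3.49), while Mef2c was lower at -3.57. Among dimer partners and antagonists of bHLH factors 1 of 10 was higher, the E protein Tcf4 (2.74). Hes6 (1.58), Id2 (1.51) and Tcf3 (0.73) were next. Of the same list the repressors Id1, Hes1 and Id3 were at least 4-fold lower, at -2.19, -3.33 and -4.89.

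Progenitor genes were 4-fold higher in 2 of 11 cases, Mfap4 (4.12) and Insm1 (3.64), a zinc-finger factor of neuronal progenitors, with Pax6 at 1.32, while Btg2 was at least 4-fold lower at -2.68. Cell division genes were 4-fold higher in 4 of 10, namely Birc5 (2.79), Top2a (2.77), Mcm6 (2.58) and Mki67 (2.01). Granule neuron genes were so in 4 of 8, namely Rbfox3 (4.52), Gap43 (3.19), Snap25 (2.64) and Ncam1 (2.01), and C1ql2, a gene of mature granule neurons, had 0 UMIs in neuroblast-like cells. Glutamatergic genes were so in 3 of 7, the vesicular transporter Slc17a6 (2.86), Grin2b (2.39) and Gria1 (2.17), with Camk2b at 1.95. Cajal-Retzius genes were so in 6 of 7, led by Reln (5.08), Ndnf (3.97), Nhlh2 (3.18) and Cacna2d2 (2.91). Reln, Ndnf and Cacna2d2 are also markers that named a Cajal-Retzius-like sub-cluster of 9 young neuroblast-like cells, described below. Most of the 172 Reln and 145 Ndnf UMIs lay in those 9 cells, so these ratios do not describe neuroblast-like cells at large. The only GABAergic gene with enough UMIs, Gad1, was at 0.46, and 0 of 10 oligodendrocyte precursor genes were 4-fold higher and 8 lower. The median over all tested genes was 0.06.

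Within neuroblast-like cells the 5 factors had different places. The cells fell into 6 sub-clusters of 5 to 14 young cells, of which 3 were named by markers (cycling progenitor-like, Cajal-Retzius-like and GABAergic neuron-like) and 3 are called by their leading genes (Hist1h1c and Hist1h2bc, Calb2 and Arl4c, Kcnk1 and Gria2). The cell division list summed to 18.4 UMIs per 10,000 in the 9 cycling progenitor-like cells and to between 0.267 and 1.06 in the other 5 sub-clusters. That list holds genes that named the sub-cluster. The glutamatergic list was highest in the Kcnk1 and Gria2 cells, at 43.4 UMIs per 10,000, against 3.71 in the cycling progenitor-like cells. Gria2 and Grin2b of that list are also leading genes of this sub-cluster, so the value is not separate from how it was called. The Kcnk1 and Gria2 cells were also the shallowest, with a median of 4230.5 UMIs per cell against 13067 in the cycling progenitor-like cells, so shares of cells with a UMI are not compared between them.

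Eomes was highest in the cycling progenitor-like cells, where 7 of 9 cells had it and cells ranged between 0 and 16 UMIs with a median of 3. Its level there was 4.36 UMIs per 10,000 (3.21 to 5.80), with most of the 47 UMIs in the cells that had 13 and 16. Hist1h1c and Hist1h2bc cells had 1.88 (1.19 to 2.82, 10 of 12 cells) and Calb2 and Arl4c cells 1.92 (1.02 to 3.28, 4 of 9 cells), the last with an interval that just overlapped that of the cycling progenitor-like cells. The Kcnk1 and Gria2 cells had 0.803 (0.261 to 1.88). None of these shallower cells had more than 1 UMI, which in a single cell came to as much as 8.76 UMIs per 10,000. The median level of single cells was 2.71 in cycling progenitor-like and 1.66 in Hist1h1c and Hist1h2bc cells. It was 0 in Calb2 and Arl4c cells and in Kcnk1 and Gria2 cells. In the old library the cycling progenitor-like cells had 3.92 and the Kcnk1 and Gria2 cells 0.716 UMIs of Eomes per 10,000.

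Neurod2 ran the other way along the same sub-clusters. No UMI of it was found in 9 young (median depth 13067 UMIs per cell) or 6 old cycling progenitor-like cells, which allows up to 0.342 UMIs per 10,000 in the young cells as the upper end of the exact interval. It was found in 7 of 12 Hist1h1c and Hist1h2bc cells (1.15 UMIs per 10,000), 5 of 9 Calb2 and Arl4c cells (2.21) and 8 of 14 Kcnk1 and Gria2 cells (2.41, 1.35 to 3.98), the last 2 with overlapping intervals. The highest single cell had 5 UMIs.

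Neurod1 lay between the 2 patterns. It was found in all 12 Hist1h1c and Hist1h2bc cells, with 2 to 16 UMIs and a median of 7, and in all 9 Calb2 and Arl4c cells, with 1 to 17 UMIs and a median of 7. The levels of 7.69 (6.21 to 9.40) and 9.58 (7.39 to 12.2) UMIs per 10,000 overlapped in their intervals. The Kcnk1 and Gria2 cells had 5.46 (11 of 14 cells) and the cycling progenitor-like cells 2.14 (5 of 9 cells, 0 to 10 UMIs, 1.35 to 3.20), below the intervals of the other 3 sub-clusters.

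Prox1 was found in 7 of 9 cycling progenitor-like cells at 1.67 UMIs per 10,000 (0.990 to 2.64), in 12 of 12 Hist1h1c and Hist1h2bc cells at 3.68, in 6 of 9 Calb2 and Arl4c cells at 3.83 and in 13 of 14 Kcnk1 and Gria2 cells at 8.03 (5.96 to 10.6). The last group ranged between 0 and 11 UMIs per cell with a median of 3.5. The level of Tbr1 was 0.743 UMIs per 10,000 (0.321 to 1.46) in cycling progenitor-like cells, 0.818 (0.392 to 1.50) in Hist1h1c and Hist1h2bc cells and 0.161 (0.00407 to 0.895) in Kcnk1 and Gria2 cells, with overlapping intervals.

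The highest Tbr1 level was in the Cajal-Retzius-like cells, at 3.08 UMIs per 10,000 (1.72 to 5.08), found in 7 of 9 cells with 0 to 4 UMIs. Of the other 4 factors these cells had 7 UMIs of Neurod1, 4 of Eomes, 1 of Neurod2 and 1 of Prox1, all in a single cell of 11689 UMIs. That cell also held 34 Igfbpl1, 5 Dcx, 16 Reln and 6 Trp73 UMIs and was not called a doublet, and its barcode had the same mix in the old library (12 Neurod1, 5 Eomes, 38 Igfbpl1 and 13 Reln UMIs). Its 8 neighbours had no Dcx or Igfbpl1 UMI.

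In the GABAergic neuron-like sub-cluster, 3 of the 5 young cells held all 70 UMIs of the GABAergic list, and none of these 3 had a UMI of Neurod1, Neurod2 or Tbr1. Another cell, with 13786 UMIs and no GABAergic UMI, held 8 Neurod1, 5 Eomes, 11 Prox1 and 1 Tbr1 UMIs. One of the 3 GABAergic cells had 1 UMI each of Eomes and Prox1.

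**Figure D2:**
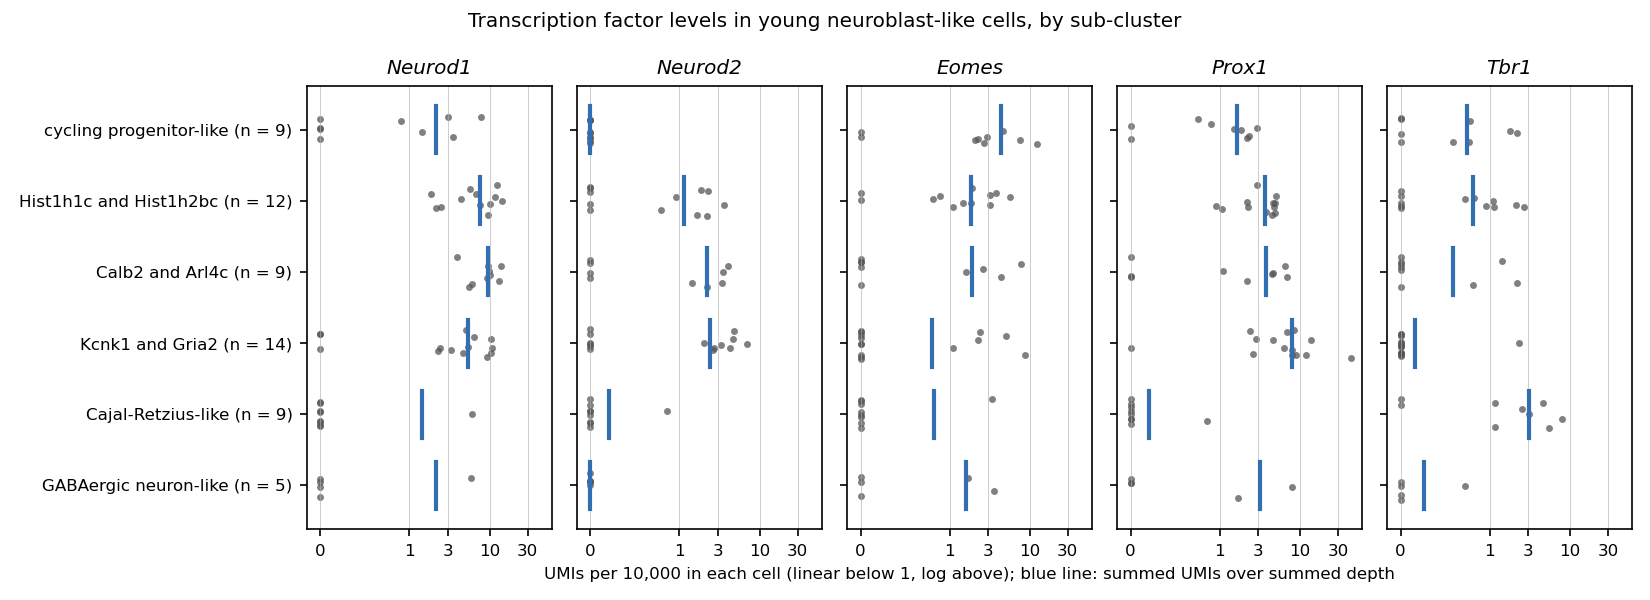
UMIs per 10,000 of each factor in every young neuroblast-like cell (x axis, linear below 1 and logarithmic above; points are cells, blue lines the level over summed cells) by sub-cluster (y axis). Eomes is highest in cycling progenitor-like cells at 4.36, Neurod2 is at 0 there, Prox1 is highest in Kcnk1 and Gria2 cells at 8.03, and Tbr1 in Cajal-Retzius-like cells at 3.08.

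Among the brain-class cells with a UMI of Dcx or Igfbpl1, 91 old and 72 young cells, 44 old and 47 young cells were neuroblast-like. The young remainder was made up of 18 oligodendrocyte precursor-like cells, all with Dcx and without Igfbpl1, and 7 cells of other classes, and held no UMI of any of the 5 factors. The old remainder of 47 cells included 16 microglia-like cells, 15 of them with Igfbpl1, and 14 oligodendrocyte precursor-like cells, and Prox1 was found in 4 of the microglia-like cells (6 UMIs), 1 of the precursor-like cells (1 UMI) and all 3 mature oligodendrocyte-like cells (7 UMIs). Neurod1 was found there in 1 microglia-like cell. Of the 72 young marker-positive cells 40 had Prox1 (55.6%, 43.4 to 67.3%), 39 Neurod1 (54.2%, 42.0 to 66.0%), 29 Eomes (40.3%, 28.9 to 52.5%), 21 Neurod2 (29.2%, 19.1 to 41.1%) and 18 Tbr1 (25%, 15.5 to 36.6%).

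In marker-positive cells 38 of 91 old (41.8%) and 41 of 72 young cells (56.9%) had 2 or more of the 5, and 38.9% of the young cells after thinning to 2000 UMIs. Of the young brain-class cells with neither marker, 3 of 1076 (0.279%) had 2 or more. In the 47 neuroblast-like ones, 2 cells had none, 4 had 1, 8 had 2, 11 had 3, 16 had 4 and 6 had all 5. Depth moved with these counts, since cells with 2 factors had a median of 5422 UMIs and cells with all 5 a median of 11460, and its part in the count was not tested. The most frequent set was Neurod1, Eomes, Prox1 and Tbr1 without Neurod2, in 8 cells, followed by all 5 in 6 cells and by Neurod1, Neurod2 and Prox1 in 6 cells.

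Of the 10 pairs in the 72 young cells, Neurod1 with Prox1 was the most frequent at 35 cells, then Eomes with Prox1 at 26 and Neurod1 with Eomes at 25. Neurod2 with Tbr1 was the least frequent at 9 cells. These top pairs joined the factors found most often (Prox1 in 40 cells, Neurod1 in 39, Eomes in 29). The last pair joined those found least often (Neurod2 in 21, Tbr1 in 18), so the order does not show which factors prefer each other. All further shares are within the 47 marker-positive neuroblast-like cells. Each of the 18 cells with Tbr1 also had Neurod1 (100%, 81.5 to 100%), while Neurod1 was found in 21 of 29 cells without Tbr1 (72.4%, 52.8 to 87.3%). These intervals overlapped, cells with Tbr1 were deeper (median 11460 UMIs against 5914), and after thinning to 2000 UMIs the shares were 72.1% with and 59.5% without Tbr1. The 100% holds only for cells chosen by Dcx or Igfbpl1. Tbr1 was in 24 of all 58 young neuroblast-like cells, and those left out were Cajal-Retzius-like cells without a Neurod1 UMI. Prox1 was found in 20 of 21 cells with Neurod2 (95.2%) and in 20 of 26 without it (76.9%), intervals that overlapped.

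Neurod2 was found in 20 of 39 cells with Neurod1 (51.3%, 34.8 to 67.6%) and in 1 of 8 without it (12.5%, 0.316 to 52.7%). With Eomes the shares ran the other way but were close, 12 of 29 cells with Eomes (41.4%, 23.5 to 61.1%) against 9 of 18 without it (50.0%, 26.0 to 74.0%). Cells with Eomes were deeper, with a median of 10780 UMIs against 5388, and after thinning to 2000 UMIs the shares of cells with Neurod2 were 15.9% with and 24.9% without Eomes. Tbr1 was found in 15 of 29 cells with Eomes (51.7%, 32.5 to 70.6%) and in 3 of 18 cells without it (16.7%, 3.58 to 41.4%), and after thinning in 14.1% and 9.58%.

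**Figure D3:**
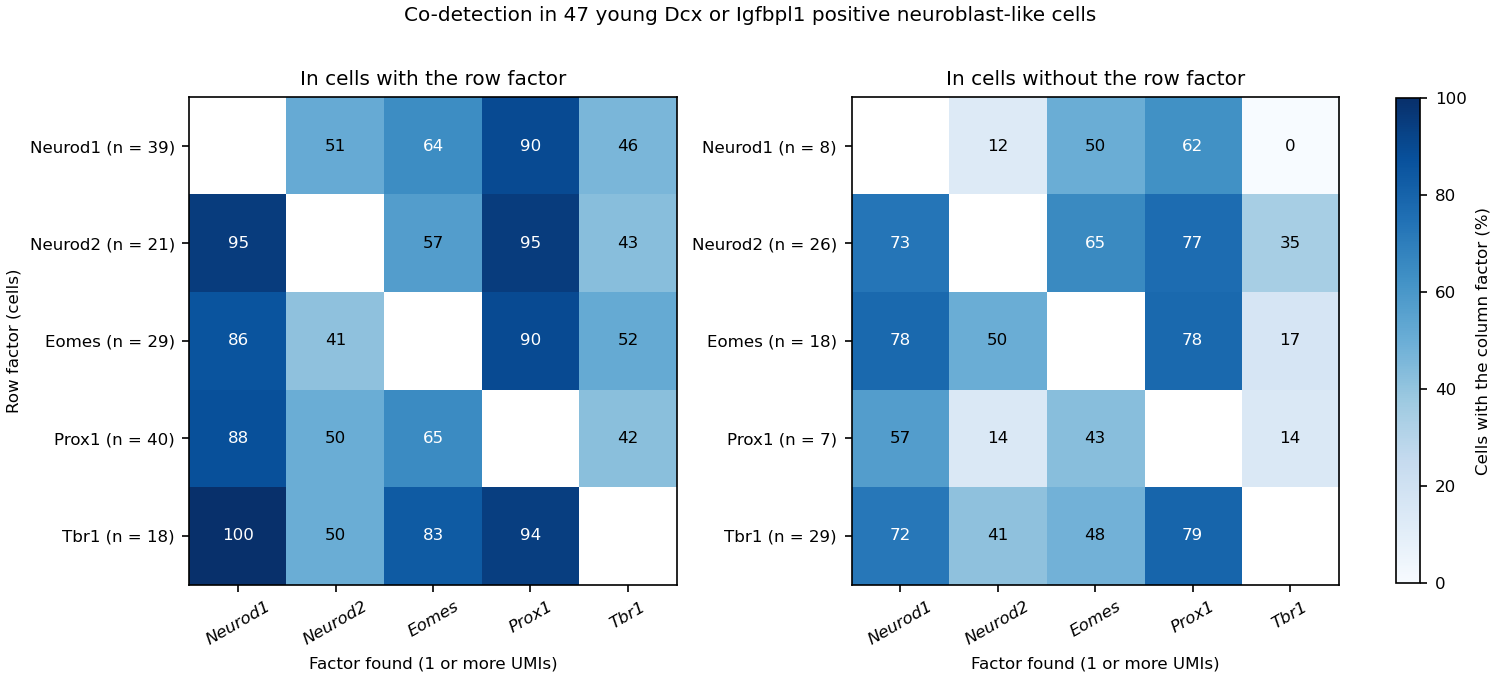
Share of the 47 young marker-positive neuroblast-like cells with the column factor, among cells with the row factor (left) and without it (right), in percent with the number of cells beside each name. Neurod1 is found in 100% of the cells with Tbr1 and in 72.4% of those without it (72.1% and 59.5% after thinning to 2000 UMIs), and Neurod2 in 41.4% of the cells with Eomes and in 50.0% of those without it. The choice by marker left out Cajal-Retzius-like cells that had Tbr1 and no Neurod1 UMI.

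Gene lists not used to select the cells differed between cells with and without a factor. The cell division list was at 0.922 UMIs per 10,000 (0.527 to 1.50) in the 21 young marker-positive neuroblast-like cells with Neurod2 and at 8.94 (7.76 to 10.3) in the 26 without it. In the old library it was at 1.25 with Neurod2 and at 5.04 without it. The glutamatergic list ran the other way, at 17.6 UMIs per 10,000 (15.7 to 19.7) with Neurod2 and 8.02 (6.91 to 9.27) without it. Most UMIs of this list were of 1 gene, with 466 of Gria2 in young neuroblast-like cells against 38 of Grin2b, the next. Kcnk1 and Gria2 cells made up 8 of the 21 young cells with Neurod2 and 5 of the 26 without it, and the part of this make-up was not tested. For Eomes the glutamatergic list was lower in cells with the factor, 9.81 against 17.8 UMIs per 10,000. Kcnk1 and Gria2 cells made up 8 of the 18 young cells without Eomes and 5 of the 29 with it. Cells without Eomes were also shallower, at a median of 5388 against 10780 UMIs, and the part of make-up and depth was not tested. The intervals of the cell division list overlapped, at 5.33 (4.51 to 6.25) with Eomes against 5.86 (4.57 to 7.41) without it. In the old library the cell division list was at 4.16 in 26 cells with Eomes and at 1.06 in 18 cells without it. Among cells without Eomes, 1 young and 0 old cells were cycling progenitor-like. Old values are mostly a second count of the same cells, so neither library checks the other. Cells of 1 sub-cluster share these genes, and 8 of the 26 cells without Neurod2 were cycling progenitor-like.

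For Neurod1 the cell division list was at 3.04 UMIs per 10,000 in 39 young cells with the factor and at 17.8 in the 8 without it, of which 3 were cycling progenitor-like and 3 GABAergic neuron-like. In the old library the 39 cells with Neurod1 and the 5 cells without it had 3.23 and 2.99 UMIs per 10,000. Of these 5 cells 1 was cycling progenitor-like and 3 were GABAergic neuron-like. The make-up of these small groups was thus not the same, and old values are mostly a second count and no separate check. The GABAergic list had 1 UMI in the 39 young cells with Neurod1 (0.0298 UMIs per 10,000) and 70 UMIs in the 8 cells without it (10.5), and in old cells 2 and 88 UMIs.

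**Figure D4:**
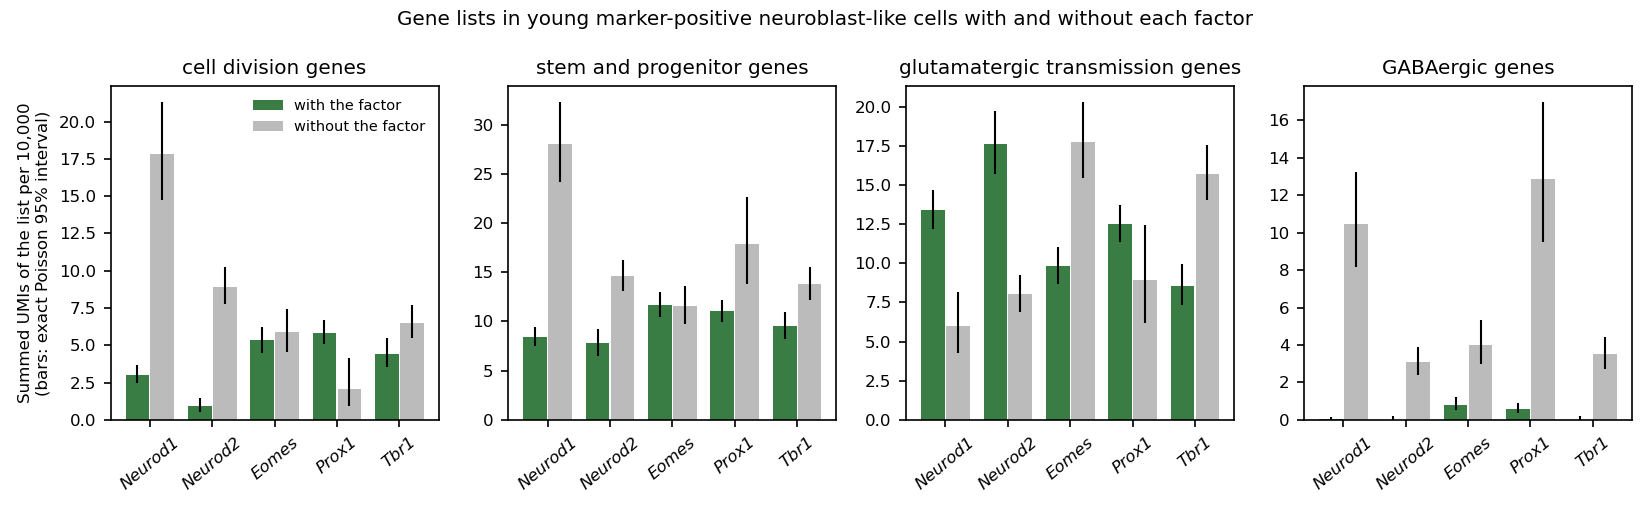
Summed UMIs per 10,000 of 4 gene lists (y axis, with exact Poisson 95% intervals) in young marker-positive neuroblast-like cells with (green) and without (grey) each factor (x axis). Cell division genes are at 0.922 with and 8.94 without Neurod2, and glutamatergic genes at 17.6 with and 8.02 without it. Gria2 gave most UMIs of the glutamatergic list in young neuroblast-like cells.

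The patterns most like each factor were ranked over 18 groups of at least 8 young cells (8 classes and 10 sub-clusters of the neuroblast-like and of the unnamed cells), by Pearson r of log2 levels. The groups share 1 library and differ in depth, most genes are near 0 outside neuroblast-like groups, and no p-value is given. Neurod1 was most like Igfbpl1 (r = 0.992), Ptx3, Nhlh1, Srrm4 and Rbfox3 (0.977). Eomes was most like Mfap4 (0.978), Igfbpl1, Ptx3, Insm1 and Clvs1 (0.951). Neurod2 was most like Prdm8 (0.952), Sh3rf3, Cnih3, Tac2 and St8sia2 (0.915). Prox1 was most like Synpr (0.954), Atl1, Smpd3, its antisense gene Prox1os (0.919) and Ccser1 (0.914). Tbr1 was most like Smim18 (0.968), Armcx4, Mfap4, Slc17a6 (0.919) and Pcgf2 (0.912).

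Between the factors, r over these groups was highest for Neurod1 with Eomes (0.936) and lowest for Prox1 with Tbr1 (0.570). The same was done over the 72 marker-positive young cells, by Pearson r of the deposited log values. Of these cells 47 were neuroblast-like and the rest held no member UMI, so the choice of cells by Dcx or Igfbpl1 and the mix of classes enter every r. The genes most like Neurod1 were Nfib (0.775), Igfbpl1, Nfix, Sox11 and Epha4 (0.719). Those most like Neurod2 were Mapk6 (0.723), Fgfr1, Zfpm2, Plxna4 and Chl1 (0.625), and those most like Prox1 were Fgfr1 (0.698), Zbtb20, Igfbpl1, Tcf4 and Cttnbp2 (0.663). Eomes was most like Kif21a (0.708), Lhx2, Cplx2, Hdac2 and Elavl2 (0.566), and Tbr1 most like Ezr (0.538), Igsf8, Phc2, Abcb9 and Elavl2 (0.491). Across these cells Neurod2 had r = 0.552 with Neurod1, 0.556 with Prox1 and 0.05 with Eomes.

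Between ages no factor reached a 2-fold difference in neuroblast-like cells, a line that 0.39% of 6662 tested genes reached in either direction. Neurod1 had 5.99 UMIs per 10,000 in 56 old and 5.18 in 58 young cells, a ratio of 1.16 (0.967 to 1.39). Eomes had 1.74 in old and 2.20 in young cells, a ratio of 0.791 (0.580 to 1.08). Neurod2 was at 1.02 and 1.01 in old and young cells (ratio 1.02), Prox1 at 3.54 and 3.41 (1.04) and Tbr1 at 0.802 and 0.874 (0.917). Each interval held 1. They cover counting error only, and the sampling of animals was not tested.

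Of the 59 distinct neuroblast-like barcodes, 55 were neuroblast-like in both libraries. Over these 55 the ratio of old to young UMIs per 10,000 was 1.07 for Neurod1, 0.839 for Eomes, 0.913 for Neurod2, 0.994 for Prox1 and 0.847 for Tbr1, and 0.217% of 6465 genes reached 2-fold. The UMI count of a barcode was the same number in both libraries for 26 of 55 barcodes for Neurod1, 32 for Prox1, 46 for Neurod2, 47 for Eomes and 49 for Tbr1. Neurod1 was higher in the old library in 24 barcodes and in the young one in 5, at a median total of 1.12 times as many UMIs per barcode in the old library. The largest difference for 1 barcode was 6 UMIs, of Neurod1. With mostly the same barcodes in both libraries, the labelled ages cannot be compared through these cells.

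**Figure D5:**
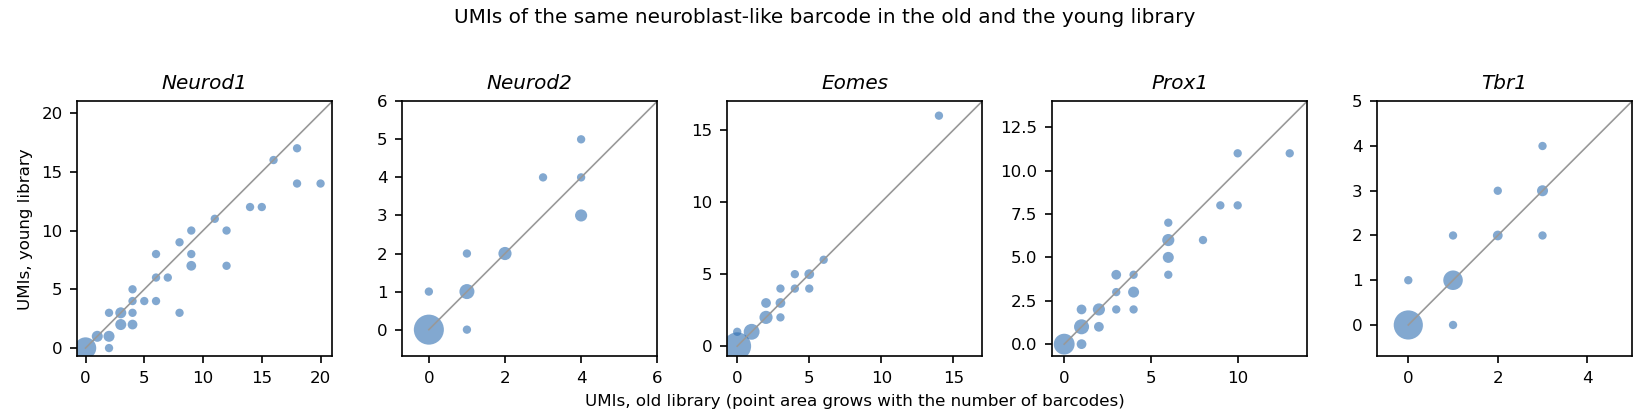
UMIs of each factor in the old library (x axis) and the young library (y axis) for the 55 neuroblast-like barcodes found in both, with point area growing with the number of barcodes and the line of equal counts in grey. The points follow the line, with equal counts for 26 barcodes of Neurod1 and 49 of Tbr1.

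The unnamed clusters of low mitochondrial share held few UMIs of 3 of the factors. Of these clusters, 2 met the marker rule for neuroblasts, by Dcx, Sox11, Stmn2 and Cd24a in both but without Igfbpl1, with 1 old and 136 young cells in one and 23 old and 146 young cells in the other. Another, of 50 old and 146 young cells, met that for cycling progenitors. Eomes had no UMI in 289 old or 1315 young cells (a count of 3 over 1315 cells would be 0.228% of cells with a UMI, which limits detection and not expression), Neurod2 had 2 UMIs and Tbr1 6 UMIs in 3 cells, all in young cells. Neurod1 was found in 10 old and 63 young cells, and 38 of the 63 belonged to the neuroblast-marked cluster of 146 young cells with Sst, Actc1 and Stmn2 among its leading genes. That cluster had 293 Neurod1 UMIs, of which 264 were in 21 cells with 5 or more. Of 9 genes picked after seeing the values, Sst was at 77.6 UMIs per 10,000 in the cells with Neurod1 and 0.922 in those without it in the young library, and at 125 and 1.48 in the old library. In the young cells Crabp1 was at 2.11 with Neurod1 and 9.89 without it, Dcx at 2.94 and 3.52, Stmn2 at 40.03 and 49.8, Insm1 at 2.81 and 4.03, Tfap2b at 8.97 and 12.97, Nefm at 15.7 and 10.8, Neurog1 at 2.94 and 0.329, and Neurod4 at 0.208 and 0.181. Prox1 was found in 95 of the 1315 young cells (7.22%), 30 of them in the neuroblast-marked cluster of 136 cells led by Stmn2, Gap43 and Nefm (22.1%).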

How the data were processed

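The deposited table of 3893 cells and 17592 genes holds natural log values that the authors deposited, which the values show to be ln(1 + UMIs per 10,000). Per the submitters' processing notes Cell Ranger 5.0.0 and mm10 were used, and per the labels the kit was 10x Single Cell 3′ v3. Undoing the log gave whole UMIs for 100% of 7332863 values (tolerance 0.01 UMI). Cells of both libraries were clustered with scanpy 1.11.5 (Leiden, resolution 1, 2000 variable genes without the 5 members, 30 components, 15 neighbours). Clusters were named where at least 3 of a class's markers were in 25% of cells and 4-fold higher. Clusters with a median mitochondrial share under 1% stayed unnamed. Scrublet called 18 old (1.26%) and 34 young (1.38%) doublets, 1 of them neuroblast-like in each library, all kept. UMIs were summed per class, and level ratios used 0.1 UMI per 10,000 as pseudocount, which understates folds of low genes. Intervals are exact Poisson, Clopper-Pearson or conditional binomial. Thinning to 2000 UMIs was computed exactly. Steps were tested on simulated data. Genes named were all 5 members, up to 4 per list by ratio (1 of them is not reported here), and the 5 most correlated per member. The members and lists were chosen with earlier results of these data known. Alternatives were the other library, shared barcodes, doublets, clustering, markers, detection and depth. No column of another sample was found.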

Additional observations from a re-analysis of the deposited data

How the results depend on the processing

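No paired test between ages was possible because each age has 1 library. The 55 neuroblast-like barcodes found in both libraries were compared by their counts, without a test. The levels in neuroblast-like cells stayed within the counting interval of the young value in 40 of 45 alternatives, among them both other clustering resolutions, the members kept among the clustering genes, and doublets left out. The exceptions were the old library (Neurod1 5.99, Eomes 1.74 UMIs per 10,000), the mean of per-cell levels (Eomes 1.78), the Cajal-Retzius-like cells left out (Tbr1 0.604) and, chosen after seeing the data, those and the GABAergic neuron-like cells left out (Neurod1 6.00). Shares of marker-positive cells depended on who counts as positive. With Igfbpl1 alone they were 73.6% for Neurod1, 54.7% for Eomes, 75.5% for Prox1 and 77.4% for 2 or more members. In neuroblast-like cells alone they were 83.0% for Neurod1, 44.7% for Neurod2, 61.7% for Eomes, 85.1% for Prox1, 38.3% for Tbr1 and 87.2% for 2 or more. In the old library Eomes was at 28.6% and 2 or more at 41.8%. With 2 or more UMIs needed, Neurod2 was at 18.1%, Eomes at 27.8%, Prox1 at 43.1% and Tbr1 at 8.33%. Thinned to 2000 UMIs they were 40% for Neurod1, 14.7% for Neurod2, 18.9% for Eomes, 33.0% for Prox1, 7.15% for Tbr1 and 38.9% for 2 or more. Of the pair shares, 61 of 90 alternatives stayed within their interval. The cause of these moves was not tested beyond the alternatives' own construction. Depth limits the shares of Tbr1 and Neurod2, found with 1 UMI in 12 of 18 and 8 of 21 positive cells.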
